A study of Mus musculus with 16 samples.

Results

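The inflammatory miRs mmu-miR-146a, mmu-miR-146b and mmu-miR-155 were followed across 6 stem and progenitor populations of mouse bone marrow. They were the non-control entries of the array bearing these names, 3 of 577 miRs and 6 of 1712 probes, and all 3 passed the detection filter that left 237 miRs for testing. MiR levels came from 16 one-colour Agilent mouse miR arrays. RNA was taken from Lin-/kit+ marrow of wild-type female C57Bl/6 mice aged 6 to 8 weeks, with no treatment named, and 10 to 20 mice were pooled for each sample. The HSC subsets, sorted together, were long-term hematopoietic stem cells (LT-HSC, 1 array), short-term HSC (ST-HSC, 3 arrays) and multipotent progenitors (MPP, 3 arrays). The myeloid progenitors, sorted separately and with 3 arrays each, were CMP (common myeloid progenitors) and their progeny, the GMP of the granulocyte-monocyte branch and the MEP of the megakaryocyte-erythroid branch.

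MicroRNAs are short RNAs that lower the output of messenger RNAs to which their seed, near the 5′ end, can pair. All 3 miRs are linked to NF-kB, the transcription factor of inflammatory signalling. The miR-146 family is induced by it and restrains the adaptor TRAF6 and the kinase IRAK1, which act upstream of NF-kB. MiR-155, made from the non-coding transcript Mir155hg, is induced in activated immune cells and restrains the phosphatase SHIP1. In bone marrow both are known for effects on myeloid output.

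The mature sequences are shown because the seeds set the targets and because the sequence difference within the miR-146 family sets what the probes can tell apart. The array names were matched by name to the 5′-arm products in RefSeq (build GRCm38.p6), and the capitals mark the seed, bases 2 to 8.
miR-146a: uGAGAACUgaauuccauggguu
miR-146b: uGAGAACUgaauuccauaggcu
miR-155: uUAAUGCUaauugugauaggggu
MiR-146a and miR-146b shared one seed, held by these 2 alone among the mature mouse miRs of the table, and miR-155 had a seed of its own. MiR-146a lies at chr11:43374435-43374456 on the minus strand (gene Mir146), with no other gene of the table over it. MiR-146b lies at chr19:46342790-46342811 on the plus strand (Mir146b), within the span of the non-coding gene Gm36493. MiR-155 lies at chr16:84714143-84714165 on the plus strand (Mir155), within the span of its host Mir155hg.

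The miR-146 pair differed at 2 of 22 positions, both near the 3′ end. Counted from 1 at the 5′ end and written from miR-146a to miR-146b, these were G18A and U21C. With those positions in capitals the pair reads as follows.
miR-146a: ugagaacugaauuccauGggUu
miR-146b: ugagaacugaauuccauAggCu
Each miR-146 was measured by a probe matching 19 bases and a probe matching 18 bases, and the probes of a miR shared one end. That end was placed at the 3′ end of the mature miR, which puts both differing bases inside all 4 probes. The spacing in the array annotation between the shared ends of the miR-146b probes and of those for the opposite strand of its hairpin was 38 bases (build mm9), as was the spacing of these 2 mature 3′ ends in RefSeq. MiR-155 had probes of 18 and 17 bases. Probe sequences were not used here.

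The longer probe was the brighter one in each case and stands for its miR below. On arrays where both probes of a miR were well above background, the longer gave 3.02 to 5.12 times the signal of the shorter for miR-146a (7 arrays), 2.91 to 4.74 times for miR-146b (11 arrays) and 1.01 to 3.87 times for miR-155 (12 arrays). Feature Extraction called the longer probe well above background on 13 of 16 arrays for miR-146a, 14 for miR-146b and 16 for miR-155. Levels are log2 values of the quantile-normalised, background-subtracted signal with a floor at 1.62, and a level of one miR cannot be set against that of another, since each probe has its own response.

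Some features of the arrays touch every value below. The myeloid arrays numbered 1 and 2 were on slide 1. Those numbered 3 were on slide 2 together with LT-HSC 1 and ST-HSC 1, and all MPP arrays were on slide 3 with ST-HSC 2 and 3. Summed over an array, signal was lowest on LT-HSC 1 (34810 units) and highest on GMP 2 (335064 units). Negative-control spots gave more noise on slide 1. Their 95th percentile ran from 9.94 units (MEP 2) to 44.3 (CMP 2) there, and from 1.53 to 3.35 on slides 2 and 3. The floor, a median over arrays of 3.07 units, was below each slide 1 value. On CMP 1 and 2 the miR-146a probe gave 51.6 and 49.8 units against noise of 30.6 and 44.3, though called well above background. Dim levels on slide 1, and their comparison with other slides, are thus less firm. ST-HSC 1 correlated with ST-HSC 2 and 3 at 0.902 and 0.911 over the tested miRs, while those 2 arrays correlated at 0.992. The erythroid markers miR-144, miR-451 and miR-486 were all well above background on LT-HSC 1, where they summed to 2390 normalised units, against 4040 to 6190 on the MEP arrays, 85.1 to 308 on the ST-HSC arrays and 34.4 to 258 on the MPP, CMP and GMP arrays. The stromal markers miR-143 and miR-145 were well above background on 0 of 16 arrays. The granulocyte-monocyte marker miR-223 was highest on the GMP arrays, at 14.04 on each. Quantile normalisation gives probes of equal rank the same value, so these equal values do not measure the spread between GMP arrays. In sorted bulk samples, fewer expressing cells and less miR per cell cannot be told apart.

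MiR-146a was highest in LT-HSC, its means followed in the order ST-HSC, MPP, CMP and GMP, and it was not well above background in MEP. Its level was 8.80 on LT-HSC 1. The ST-HSC arrays read 7.69, 5.13 and 6.03 (mean 6.28 ± 1.3, SD, n = 3), and the MPP arrays 5.26, 5.17 and 5.56 (mean 5.33 ± 0.205, SD, n = 3). The 2 HSC arrays of slide 2 thus stood above all others, while ST-HSC 2 lay just under the MPP arrays.
Among the myeloid progenitors the CMP arrays read 5.21, 5.08 and 4.82 (mean 5.04 ± 0.201, SD, n = 3). The GMP arrays read 4.84, 5.0 and 4.29 (mean 4.71 ± 0.372, SD, n = 3). The MEP arrays read 2.67, 3.1 and 1.69, and none of them had the probe well above background. The CMP and GMP arrays overlapped, and the MEP arrays lay under all 13 others.

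MiR-146b had another order, with GMP on top. The GMP arrays read 8.14, 7.91 and 7.86 (mean 7.97 ± 0.147, SD, n = 3), above every array of the other populations. The ST-HSC arrays read 6.65, 7.08 and 7.42 (mean 7.05 ± 0.385, SD, n = 3), and the MPP arrays 6.82, 6.79 and 7.17 (mean 6.92 ± 0.210, SD, n = 3). These 2 populations overlapped.
The CMP arrays read 6.37, 6.62 and 5.85 (mean 6.28 ± 0.394, SD, n = 3). LT-HSC 1 read 6.03, inside the CMP range and under all ST-HSC and MPP arrays. The MEP arrays read 3.60, 4.44 and 1.62, with the last at the floor and the probe well above background on 1 of the 3. MEP was thus the lowest population for miR-146b too.

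MiR-155 had its highest mean in MPP on the longer probe. On the shorter probe CMP was on top, with means of 5.27 in CMP, 5.17 in ST-HSC and 5.15 in MPP. By limma's test of population pairs on the longer probe, MPP was not told apart from ST-HSC (adjusted p = 0.531) or CMP (adjusted p = 0.205). On that probe the MPP arrays read 7.66, 7.40 and 7.55 (mean 7.54 ± 0.133, SD, n = 3), and the ST-HSC arrays 6.37, 7.26 and 7.50 (mean 7.04 ± 0.594, SD, n = 3). The CMP arrays read 7.14, 7.33 and 5.83 (mean 6.77 ± 0.819, SD, n = 3). The spread in ST-HSC and in CMP came from the slide 2 array of each, which was the lowest.
The GMP arrays read 6.74, 6.82 and 5.47 (mean 6.34 ± 0.759, SD, n = 3), again with the slide 2 array lowest. LT-HSC 1, also of slide 2, read 5.92. The MEP arrays read 4.38, 4.57 and 3.82 (mean 4.26 ± 0.390, SD, n = 3), under all other arrays. Unlike both miR-146 probes, the miR-155 probe was well above background on every MEP array.

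**Figure D1:**
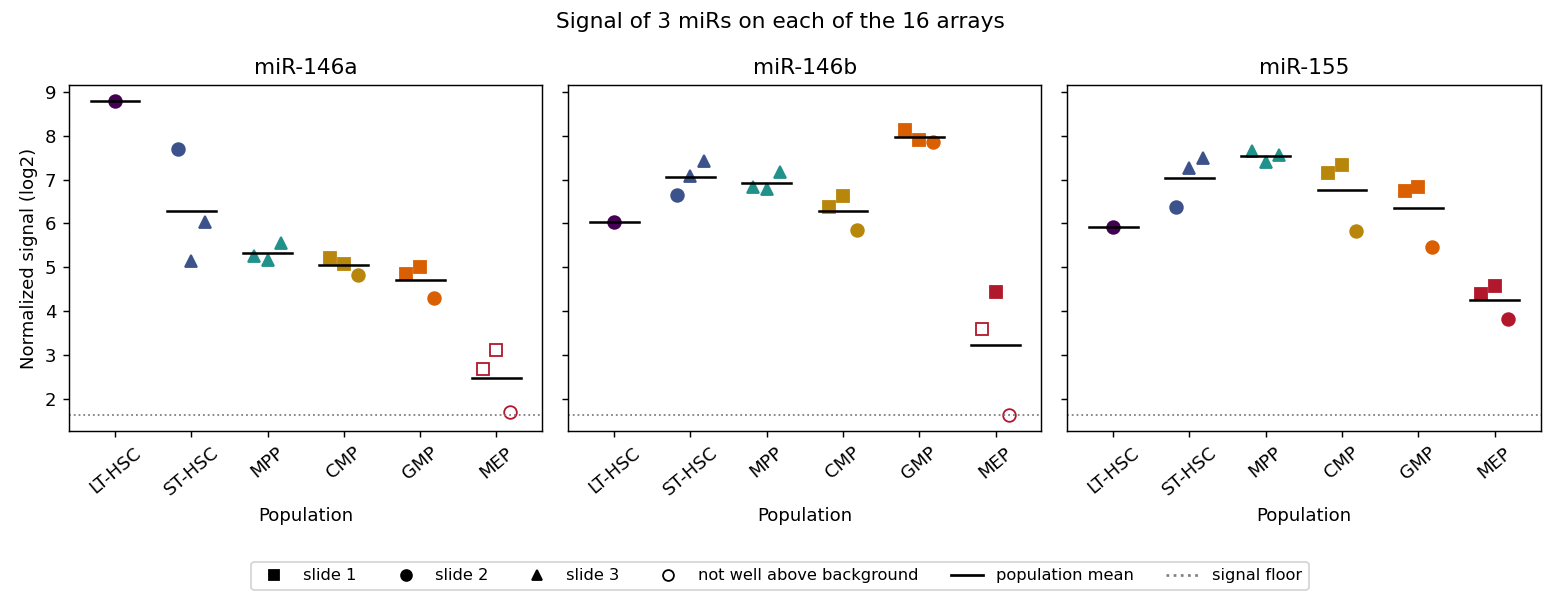
Normalised signal (log2) of miR-146a, miR-146b and miR-155 on each of the 16 arrays, by population, with slides as marker shapes, population means as bars, the floor of 1.62 as a dotted line and arrays not well above background as open symbols. On the longer probes shown, miR-146a peaks at 8.80 on the LT-HSC array, miR-146b at a mean of 7.97 in GMP and miR-155 at a mean of 7.54 in MPP, and MEP is lowest for each. On the shorter miR-155 probe, not shown, the mean of CMP (5.27) is above that of MPP (5.15).

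All 3 miRs differed between populations by limma's moderated F-test, with adjusted p-values of 5.06e-05 for miR-146a, 4.96e-05 for miR-146b and 0.000308 for miR-155. This is a common result here, as 82.7% of the tested miRs passed. Of the 15 pairs of populations, 10 were called for miR-146a, 6 for miR-146b and 5 for miR-155. Over all tested miRs and pairs 38.3% were called, from 4.64% for ST-HSC against MPP to 71.3% for MPP against MEP. Without LT-HSC 1, 5 of the 10 pairs that remain were called for miR-146a, and without both LT-HSC 1 and ST-HSC 1 this number was 4 for miR-146a and 5 for miR-155.

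The first comparison set the HSC subsets against the myeloid progenitors, the split between the 2 sorts. MiR-146a was higher in HSC subsets by 2.73 ± 0.346 on the log2 scale (SE, adjusted p = 3.14e-05), with each population weighted equally. MiR-155 was higher by 1.04 ± 0.299 (SE, adjusted p = 0.0122). MiR-146b differed by 0.84 ± 0.348 (SE, adjusted p = 0.0603), which missed the threshold. Thus 2 of the 3 were called, where 48.1% of the 237 tested miRs were.
Because no MEP array measured miR-146a, the size of its difference is not firm. It also rested in large part on the HSC arrays of slide 2. Without LT-HSC 1 and ST-HSC 1 it was 1.38 (adjusted p = 0.000335), and MPP, with no array on slide 2, differed from CMP by 0.29 ± 0.519 (SE, adjusted p = 0.670) and from GMP by 0.62 ± 0.519 (SE, adjusted p = 0.347). With slide as a block, where MPP is tied to the myeloid arrays through ST-HSC alone, these were 2.89 and 3.22 (adjusted p = 0.0015 and 0.000336), both called, and scaling to the 75th percentile of probes detected on every array also called MPP minus GMP (1.16, adjusted p = 0.0323). Within slide 2, the one slide with both sorts, the 2 HSC arrays averaged 8.25 and the 3 myeloid arrays 3.60. With the slide term the difference between the sorts was 4.38 ± 0.298 (SE, adjusted p = 1.13e-06).
For miR-155 the slide 2 difference was 1.10, close to that over all arrays, and without LT-HSC 1 and ST-HSC 1 it was 1.67 (adjusted p = 0.000327). Its shorter probe, however, gave 0.36 (adjusted p = 0.313). On that probe CMP 1 and 2 read 5.78 and 5.79, above the MPP arrays at 5.10 to 5.21, whereas on the longer probe the MPP arrays were above both. The direction between MPP and CMP was therefore not settled by the 2 probes of miR-155.

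Within the HSC subsets, miR-146a was the one member called when LT-HSC was set against the mean of ST-HSC and MPP, a comparison in which 29.1% of tested miRs were called. It was higher in LT-HSC by 2.99 ± 0.687 (SE, adjusted p = 0.00474). The call depended on the scaling of the arrays, as it was lost when arrays were scaled to the 75th percentile over all probes (1.75, adjusted p = 0.054) and with no normalisation (0.44, adjusted p = 0.682), LT-HSC 1 being the array with the lowest summed signal. This rests on 1 LT-HSC array, whose spread the fit borrowed from the other populations. On slide 2 LT-HSC 1 exceeded ST-HSC 1 by 1.11, and with slide as a block the difference was 1.23 ± 0.447 (SE, adjusted p = 0.0366).
ST-HSC 1 itself exceeded the mean of ST-HSC 2 and 3 by 2.12 for miR-146a, the 11th largest such excess among the 237 tested miRs. On their longer probes miR-146b and miR-155 differed the other way, by -0.60 and -1.01, where the median of tested miRs was -0.01. Their shorter probes did not show this. The shorter miR-146b probe was higher on ST-HSC 1, at 5.36 against 4.79 and 4.93 on ST-HSC 2 and 3. The shorter miR-155 probe read 5.15 on ST-HSC 1, where the ST-HSC arrays had a mean of 5.17 ± 0.0218 (SD, n = 3). On slide 3 the 2 ST-HSC arrays exceeded the 3 MPP arrays by 0.24 for miR-146a. The high miR-146a arrays were thus the HSC arrays of slide 2, while the CMP and GMP arrays of that slide read 4.82 and 4.29.
Erythroid marker signal was also raised on LT-HSC 1, as given above. On the MEP arrays, where that signal was highest, miR-146a was not well above background. On ST-HSC 1, ST-HSC 3 and ST-HSC 2, with 308, 257 and 85.1 summed units of those markers, miR-146a read 7.69, 6.03 and 5.13. Whether miR-146a followed the erythroid signal was not tested. LT-HSC against ST-HSC and MPP gave -0.96 ± 0.691 for miR-146b (SE, adjusted p = 0.298) and -1.37 ± 0.594 for miR-155 (SE, adjusted p = 0.0923), neither called.

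GMP against the other populations set the miR-146 pair apart. MiR-146b was higher in GMP by 2.07 ± 0.418 on the log2 scale (SE, adjusted p = 0.00149). The value was 2.76 on slide 1 and 2.83 on slide 2. MiR-146a differed by -0.88 ± 0.415 (SE, adjusted p = 0.0971) and miR-155 by 0.04 ± 0.359 (SE, adjusted p = 0.922, 95% interval -0.74 to 0.81). One of the 3 was therefore called, where 48.1% of tested miRs were.
The direction for miR-146a depended on which populations shared a slide with GMP. With slide as a block it was -1.87 ± 0.247 (SE, adjusted p = 0.000103), on slide 1, which held CMP and MEP alone beside GMP, it was 0.90, and without LT-HSC 1 and ST-HSC 1 it was 0.10 (adjusted p = 0.774). For miR-146b the closest neighbour of GMP was ST-HSC, and ST-HSC minus GMP was -0.92 ± 0.522 (SE, adjusted p = 0.185). This pair was not called in the fit reported here, but it was called under 6 of 16 other settings and without MEP 3, with values from -1.49 to -0.66 (adjusted p = 0.00334 to 0.0466). MPP minus GMP was -1.05 (adjusted p = 0.122) and was called under 7 of those 16 and without MEP 3 (adjusted p = 0.00111 to 0.0329). CMP, which give rise to GMP, gave -1.69 ± 0.522 against GMP (SE), with an adjusted p of 0.0572, or 0.00842 with slide as a block and 0.0295 and 0.00194 without MEP 2 or MEP 3. It was called under 8 of 18 other settings. The same-numbered myeloid arrays deviated together, and with those 9 arrays alone and their number as a block the adjusted p was 0.0681. That pair differed for 7.59% of tested miRs.

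**Figure D2:**
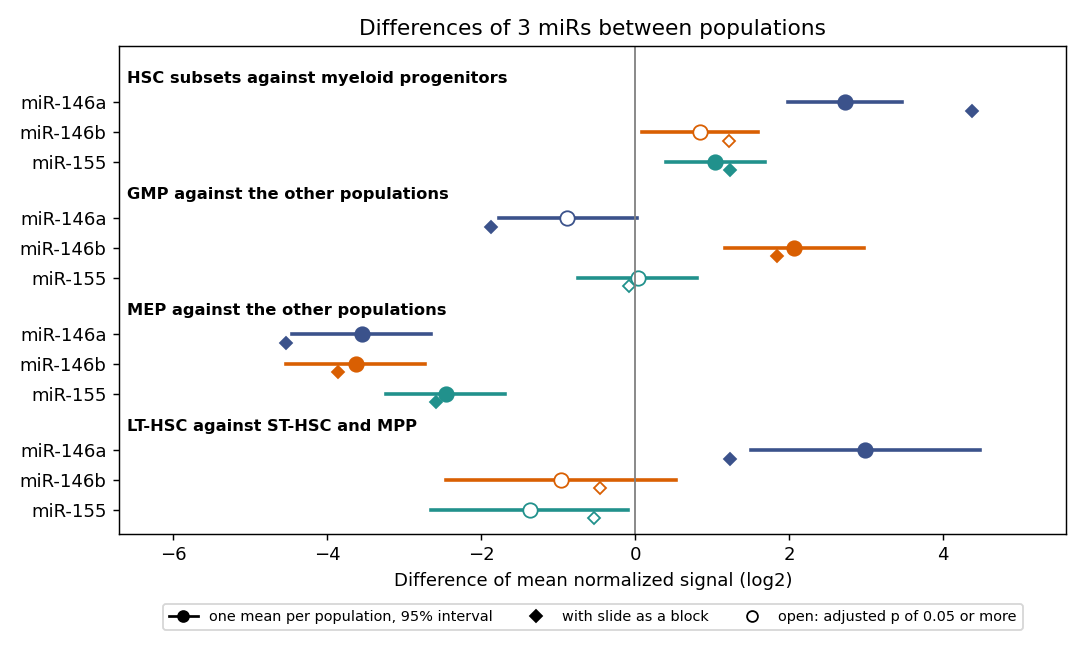
Differences of mean normalised signal (log2) for 4 comparisons, with circles and 95% intervals from the fit with one mean per population, diamonds from the fit with slide as a block, and filled symbols for an adjusted p under 0.05. MiR-146b alone is called higher in GMP (2.07), each miR is lower in MEP, and the miR-146a values move most with the slide term, from 2.73 to 4.38 for HSC subsets and from 2.99 to 1.23 for LT-HSC.

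MEP was the low population for all 3 miRs. Each was called lower in MEP than in the other populations, where 68.4% of tested miRs were called in either direction and 44.3% were called lower. MEP minus the mean of the other populations was -2.46 ± 0.359 on the log2 scale for miR-155 (SE, adjusted p = 4.68e-05), or 5.51-fold lower. The size for miR-155 depended on the probe and the background. It was -1.27 with the shorter probe, -1.22 with the authors' deposited values and -0.98 with normexp background correction, all called. For miR-146b the difference was -3.63 ± 0.418 (SE, adjusted p = 5.73e-06), a size that is not firm because 1 of 3 MEP arrays measured it.
For miR-146a (adjusted p = 6.25e-06) only bounds can be given, with the MEP arrays set at the higher of their own value and the dimmest probe well above background, a mean of 3.66. On that basis the miR-146a probe read at least 35.4-fold higher on the LT-HSC array, at least 6.18-fold in ST-HSC and at least 3.20-fold in MPP. For CMP and GMP the limits were 2.61-fold and 2.08-fold. They are limits on probe signal, taken from population means without their spread. In GMP the probe may have read miR-146b, so the GMP limit does not hold for miR-146a itself. The measured MEP mean was 2.48. These limits depended on the scaling. Under the other 3 scalings, none included, the limit ran from 6.17-fold to 26.7-fold for LT-HSC, from 1.42-fold to 2.47-fold for CMP and from 1.03-fold to 2.18-fold for GMP. On slide 1 alone, MEP minus the mean of CMP and GMP was -2.53 for miR-155 and -3.24 for miR-146b.

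In the order of levels, few neighbours differed beyond their spread. For miR-146a, LT-HSC and ST-HSC differed by 2.52 (adjusted p = 0.0261, or 0.0501 with slide as a block and 0.0625 without ST-HSC 3). That call was lost under 6 of 15 other settings and depended on the scaling. The difference was 1.38 with the 75th percentile of all probes and 0.20 with no normalisation, neither called. GMP and MEP also differed for miR-146a (2.23, adjusted p = 0.00211), a call that was lost with normexp background correction (0.33, adjusted p = 0.275) and with the authors' deposited values (0.50, adjusted p = 0.168). ST-HSC and MPP (0.95, adjusted p = 0.345) and CMP and GMP (0.33, adjusted p = 0.885) were not told apart, nor were MPP and CMP without the slide term, as given above. For miR-146b the order was GMP, ST-HSC, MPP, CMP, LT-HSC and MEP, and the one neighbouring step called was that from LT-HSC to MEP (2.81, adjusted p = 0.0119), which was lost with no normalisation (0.96, adjusted p = 0.521). For miR-155 the order on the longer probe was MPP, ST-HSC, CMP, GMP, LT-HSC and MEP. No neighbouring step of it was called, the step from LT-HSC to MEP being 1.66 with an adjusted p of 0.0686. That step passed the threshold when slide was a block (2.41, adjusted p = 1.32e-05), when arrays were scaled to the 75th percentile of probes detected on every array (2.16, adjusted p = 0.00978) and without CMP 3, GMP 3 or ST-HSC 1 (adjusted p = 0.0322 to 0.0464). Across more steps, MPP exceeded GMP for miR-155 by 1.19 ± 0.449 (SE, adjusted p = 0.0460), and this call was lost when any one of 11 arrays was left out, with values from 0.75 to 1.39. It was also lost under 8 of 16 other settings, among them the shorter probe (0.38, adjusted p = 0.509).

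Whether the probes tell miR-146a from miR-146b was examined on the unnormalised signal, where carry-over from one miR to the other's probe would add a fixed share. The miR-146a probe gave 37.7, 43.9 and 12.4 units on the GMP arrays, where the miR-146b probe gave 463, 460 and 149 units. On LT-HSC 1 the order was the opposite, with 77.5 units for miR-146a and 20.1 for miR-146b, and on ST-HSC 1 the values were 117 and 63.4. The 2 probes thus moved apart in both directions, miR-146a being at 8.15% of the miR-146b signal on GMP 1 and 385% on LT-HSC 1.
These extremes bound the carry-over. If all miR-146a signal on GMP 1 were miR-146b, 8.15% of the miR-146b signal would be carried over, and no more. If all miR-146b signal on LT-HSC 1 were miR-146a, 25.9% of the miR-146a signal would be carried over, and no more.

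Taking the first limit as real leaves little of the miR-146a signal in GMP and most of it elsewhere, with no less on the MPP arrays than on ST-HSC 2. After subtraction of 8.15% of the miR-146b signal, 97.9% of the miR-146a signal was left on LT-HSC 1 and 95.6% on ST-HSC 1. On ST-HSC 2 and 3 it was 75.3% and 84.7%, on the MPP arrays 79.1% to 81.5% and on the CMP arrays 71.3% to 83.0%. On the GMP arrays 0%, 14.7% and 1.98% were left. MiR-146a in GMP and miR-146b read by the miR-146a probe cannot be told apart in these data.
The reverse limit hardly touched the GMP level of miR-146b. After subtraction of 25.9% of the miR-146a signal, 97.9%, 97.5% and 97.8% of the miR-146b signal was left on the GMP arrays, 86.2% to 92.6% on the MPP and CMP arrays and on ST-HSC 2 and 3, 52.1% on ST-HSC 1 and, by construction, none on LT-HSC 1. The miR-146b level in LT-HSC is therefore the one that carry-over could affect most. The shorter miR-146b probe was not well above background on that array.

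**Figure D3:**
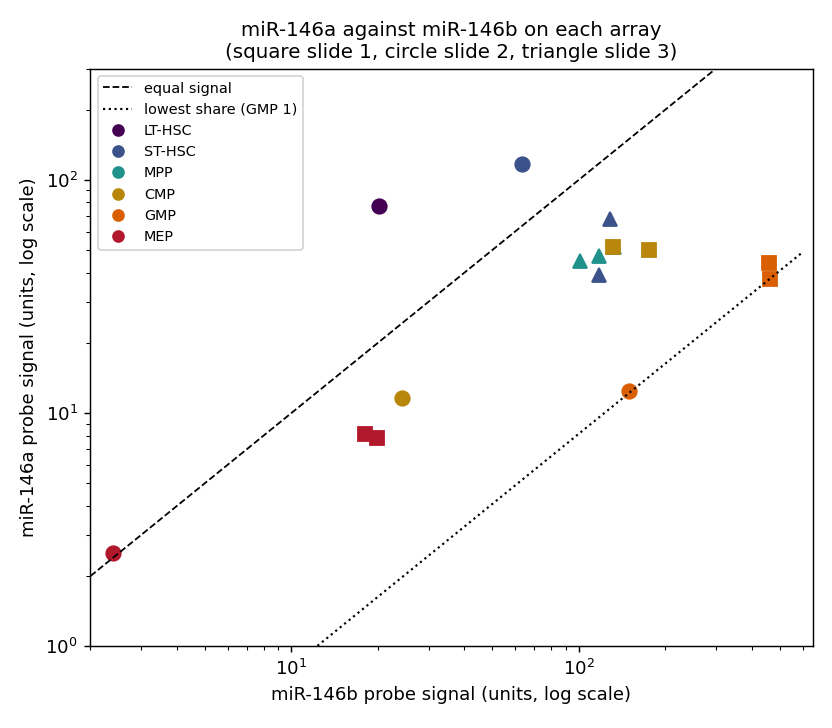
Unnormalised signal (units, log scales) of the longer miR-146a probe against that of the longer miR-146b probe on the 16 arrays, coloured by population and shaped by slide, with a dashed line at equal signal and a dotted line at the lowest share of miR-146a in miR-146b, 8.15% on GMP 1. The GMP arrays lie on or just above the dotted line, LT-HSC 1 and ST-HSC 1 lie above the dashed line, and the MPP, CMP and other ST-HSC arrays lie between the lines.

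Probes of one miR moved together, while probes of the 2 miR-146 members moved together over all arrays, with MEP low for both, and not when MEP was left out. Across the 16 arrays the longer and shorter probes correlated at 0.952 for miR-146a, 0.953 for miR-146b and 0.902 for miR-155. Over the 13 without MEP these were 0.971, 0.893 and 0.801. The shorter probes were well above background on 7, 11 and 12 of the 16 arrays. The longer probes of miR-146a and miR-146b correlated at 0.586 over the 16 arrays and at -0.443 over the 13 without MEP, and those of miR-146b and miR-155 at 0.795 and 0.110. These are descriptions over arrays that share populations and slides.

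The contrast between the 2 miR-146 members was then tested on their log2 difference within each array, miR-146a minus miR-146b, in which the brightness of an array largely cancels. GMP arrays read -3.29, -2.91 and -3.57, while the 13 others ran from -1.96 to 2.77. The means differed by -2.47 (exact two-sided permutation test over 560 splits, p = 0.0143). Without the MEP arrays, added after seeing the data because miR-146a was not measured there, the difference was -2.46 (exact permutation p = 0.0315). It was -1.86 on slide 1 and -4.29 on slide 2, where the smallest p the exact permutation test allows is 0.0667 and 0.200.
Between HSC subsets and myeloid progenitors the same quantity differed by 1.13 (exact two-sided permutation p = 0.168). The call depended on the scaling, as the difference was 1.41 and 1.42 with the 2 percentile scalings (exact permutation p = 0.0476 for each) and 1.42 with no normalisation (exact permutation p = 0.0477). It was 2.77 on LT-HSC 1 and 1.04 on ST-HSC 1, and from -1.96 to -1.39 on the other 5 HSC arrays, which lay within the range of the myeloid arrays, -3.57 to 0.07. Without LT-HSC 1 and ST-HSC 1 the difference was 0.12 (exact permutation p = 0.838). The positive values were thus those of the slide 2 HSC arrays and of MEP 3, at which both miRs were near or at the floor.

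By Pearson correlation over the 16 arrays, the miRs most like miR-146a were miR-29a (0.928), miR-130a (0.889) and miR-26a (0.882). Those most like miR-146b were miR-194 (0.957), miR-139-5p (0.934) and miR-24 (0.931). Those most like miR-155 were miR-10b (0.976), miR-203 (0.955) and miR-467b (0.945). No miR appeared for more than 1 member. The median over the 236 other tested miRs was 0.131, 0.351 and 0.306.

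Other miRs linked to NF-kB or inflammation were taken from a list of 13, of which miR-9 and miR-132 did not pass the detection filter. Of the 11 tested, 7 were higher and 2 lower in HSC subsets than in myeloid progenitors, where 25.3% and 22.8% of all tested miRs were. With slide as a block these numbers were 7 and 1, but the members changed. The calls of miR-221 (0.36, adjusted p = 0.0958) and miR-223 (-0.30, adjusted p = 0.599) were lost, and let-7i was called higher (0.39, adjusted p = 0.0264). The list's median difference was 0.51, against 0.06 over all tested miRs. The higher miRs included let-7e (adjusted p = 1.40e-07) and the lin-4 homologues miR-125b-5p (3.00, adjusted p = 2.41e-08) and miR-125a-5p (adjusted p = 1.20e-08), all 3 well above background on every HSC array. Among the 9 myeloid arrays 2 had let-7e well above background, so the size of its difference is not firm. MiR-125a-5p was well above background on none of the myeloid arrays and its HSC level was higher by at least 2.73-fold. MiR-222, which restrains the receptor kit, was higher by 1.12 (adjusted p = 7.61e-06), and miR-21 and miR-221 were higher by 0.51 and 0.44 (adjusted p = 0.0449 and 0.0405). MiR-210 was called too (adjusted p = 0.00654), but it was well above background on the MPP arrays alone and no fold can be given. The lower ones were miR-27b (-1.11, adjusted p = 0.000837) and miR-223 (-0.76, adjusted p = 0.0439).
In GMP 4 of the 11 were higher and 4 lower than in the other populations, against 29.1% and 19% of all tested miRs. The higher ones were miR-223, which restrains granulocyte activation (2.78, adjusted p = 5.06e-05), miR-27b (1.47, adjusted p = 0.000422), miR-181b (1.06, adjusted p = 0.000422) and miR-221 (0.79, adjusted p = 0.00485). The lower ones were miR-125b-5p (-1.41), let-7e, miR-125a-5p and miR-210. No size is given for the last 3, since let-7e was well above background on 1 GMP array and the other two on none, with miR-125a-5p measured on none of the CMP and MEP arrays either. MiR-146b thus changed in GMP in the direction of miR-223, while miR-155 and miR-146a were not called.
In MEP 10 of the 11 were lower and 0 higher, against 44.3% and 24.1% of all tested miRs, and miR-210, not well above background in MEP, was not called (adjusted p = 0.945). The list's median was -2.50 and that of all tested miRs -0.47. In LT-HSC miR-221 and miR-222 were lower than in ST-HSC and MPP, at -2.08 and -1.10 (adjusted p = 0.000417 and 0.00310), and no listed miR was higher, against 21.1% and 8.02% of all tested miRs. With slide as a block 6 of the 11 were lower and none higher, with miR-21 (-1.52), miR-27b (-1.92), miR-181b (-1.07) and let-7i (-0.75) called as well (adjusted p = 0.000602 to 0.00979). MiR-146a, higher in LT-HSC, had no counterpart on the list in this comparison.

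**Figure D4:**
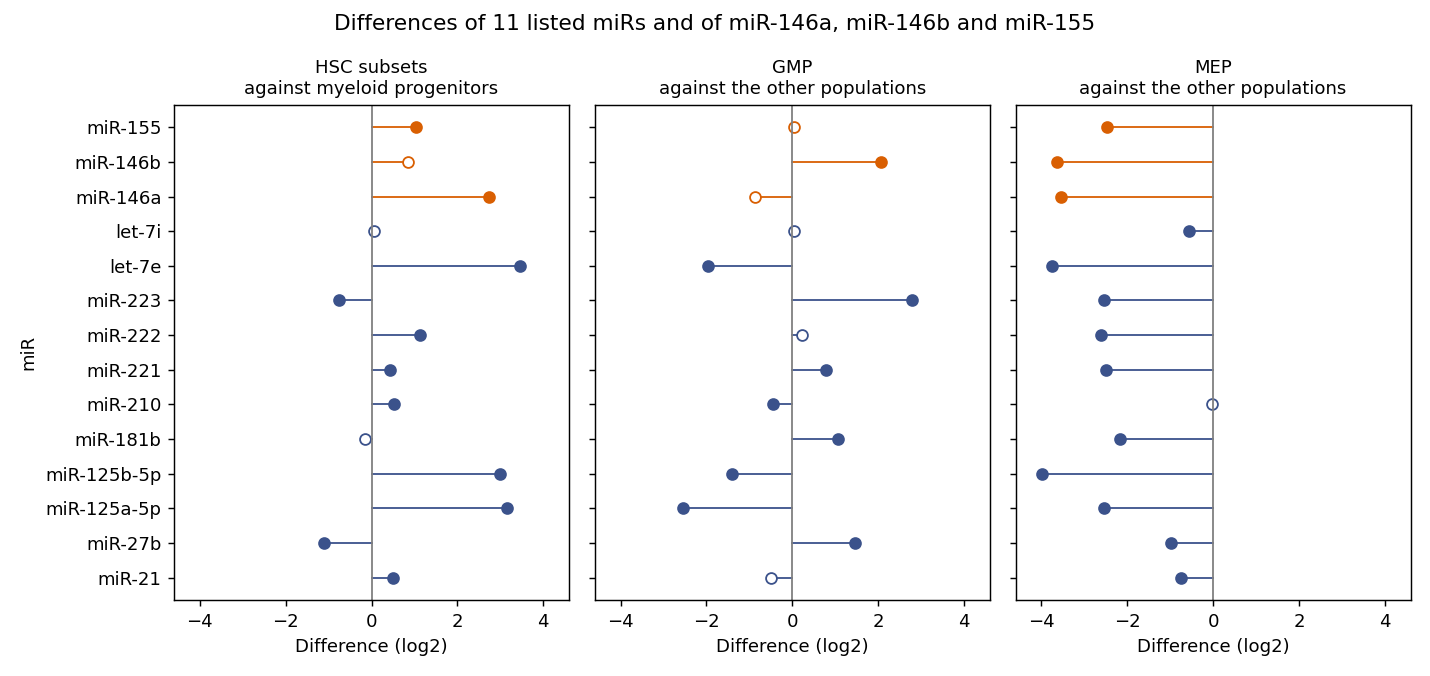
Differences in mean normalised signal (log2) of 11 listed miRs (blue) and of miR-146a, miR-146b and miR-155 (orange) in 3 comparisons, filled where the adjusted p was under 0.05, with every miR at its measured difference, which is not firm for those well above background on few or no arrays of one side (let-7e, miR-125a-5p, miR-210, and miR-146a and miR-146b in MEP). In MEP 10 of the 11 and all 3 members are called lower, while in GMP 4 of the 11 are called higher and 4 lower, with miR-146b (2.07) on the higher side beside miR-223 (2.78).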

How the data were processed

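MiR levels were measured on 16 one-colour arrays, grouped by the sample titles, of total RNA labelled with Cy3. The deposited scanner files hold spot intensity, background-subtracted by the authors' run of Agilent Feature Extraction and not normalised between arrays. The deposited log2 values, quantile-normalised by the authors with limma, followed the median foreground signal and served as an alternative. The scanner model and the software version of slide 1 differed, per the file headers, from those of slides 2 and 3, so slide, scanner and software cannot be told apart.

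Here, control and outlier-flagged spots were dropped, spots were averaged per probe, arrays were quantile-normalised, lower signals were set to a floor of 3.07 units (95th percentile of negative controls, median of the arrays) and log2 was taken. Detection needed the Feature Extraction call on a share of 0.5 or more of a probe's spots. Probes detected on 3 or more arrays, 493 for 237 miRs, were kept, and each miR was read from its brightest one. Limma 3.58.1 (R 4.3.3, with data.table in version 1.17.8) fitted one mean per population to all arrays, with 10 residual and 3.1 prior degrees of freedom. P-values were two-sided and Benjamini-Hochberg adjusted over the 237 miRs, with calls at 0.05. The fit was tested on simulated data. The number of arrays limits the precision. The samples were pools of mice, and nothing states how far pools of one population were independent, so p-values measure the spread between these samples.

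Named miRs were the 3 members, the called miRs of the list and, for each member, the 3 with the highest correlation. The members and lists were chosen with earlier results of these data known. Alternatives concerned normalisation, background, floor, filter, probes, slide, replicate number and each array left out. Same-numbered CMP, GMP and MEP arrays deviated together (correlations of 0.227 to 0.632) and were also fitted with the number as a block. The numbers did not pair the other populations.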

Additional observations from a re-analysis of the deposited data

How the results depend on the processing

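Over 19 alternatives that left out no single array, 286 of 330 recomputed values were taken as kept. They kept their direction and their side of the threshold, or moved by no more than their error. Numbers of called pairs were taken as kept when near the main number, although single pair calls changed. For miR-146b, 9 against 6 with the 75th percentile of all probes was so taken. The 286 include every value of each miR for the F-test, every call of each miR as lower in MEP, the miR-146b call in GMP and the miR-146a call in HSC subsets, apart from within-slide values, which have no test.

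For miR-146a in GMP, the value was -1.48 with the 75th percentile of probes well above background on all arrays, -0.62 with normexp, -0.73 with the authors' values, -1.04 with a floor of 10 units and -1.87 with slide as a block, all called, and it was 0.10 without LT-HSC 1 and ST-HSC 1, 0.90 within slide 1 and -1.46 within slide 2. For LT-HSC against the other HSC subsets, miR-146a gave 1.75 with the 75th percentile of all probes and 0.44 without normalisation, neither called, and 1.11 within slide 2. Its HSC difference was 4.65 within slide 2, and its MEP difference -2.15 within slide 1 and -4.72 within slide 2. Its called pairs numbered 5 without normalisation and 4 without the 2 slide 2 HSC arrays, against 10.

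For miR-146b in HSC subsets, the value was 1.03 with the 75th percentile of probes well above background on all arrays, 0.65 with a floor of 10 units, 0.70 with the mean of probes, 0.56 with the dimmest probe and 1.27 without LT-HSC 1 and ST-HSC 1, all called, then -0.07 without normalisation and 1.23 within slide 2. For LT-HSC it was 0.11 with the first of these and -0.54 with normexp, the latter called. Its GMP difference was 2.76 within slide 1 and 2.83 within slide 2, and its MEP difference -4.98 within slide 2. With the authors' values 11 of its pairs were called, against 6.

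For miR-155 in HSC subsets, calls were lost with the 75th percentile of all probes (0.67), no normalisation (0.16), the mean of probes (0.70) and the dimmest probe (0.36). In GMP, never called, its value was -0.50 with the 75th percentile of probes well above background on all arrays, -0.07 with normexp, -0.10 with the authors' values, -0.08 with slide as a block, -0.15 without the 2 slide 2 HSC arrays and 0.92 within slide 1. Within slide 2 its MEP difference was -2.07 and its LT-HSC difference -0.45. The within-array difference between miR-146a and miR-146b for HSC subsets was 1.41 and 1.42 with the 2 percentile scalings and 1.42 without normalisation, with an exact permutation p of 0.0476, 0.0476 and 0.0477. The cause of these changes was not tested.

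Uncalled pairs changed sign as follows. With the 75th percentile of probes well above background on all arrays, LT-HSC exceeded MPP and CMP by 0.32 and 0.89 for miR-146b, and CMP and GMP by 0.22 and 0.90 for miR-155. With the 75th percentile of all probes ST-HSC minus MPP was -0.01 for miR-146b and ST-HSC minus CMP -0.12 for miR-155, and without normalisation -0.24 and -0.35. The dimmest probe gave -0.26 for CMP minus GMP of miR-146a, and for miR-155 0.02 for ST-HSC minus MPP, -0.10 for ST-HSC minus CMP and -0.12 for MPP minus CMP. Slide as a block gave 0.46 for LT-HSC minus CMP of miR-146b and 0.32 for LT-HSC minus GMP of miR-155.

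With each array left out in turn, miR-146a in GMP ran from -1.01 to -0.07, called without ST-HSC 1 or ST-HSC 2, and its called pairs from 5 to 11. MiR-146b in HSC subsets ran from 0.58 to 1.17, called without LT-HSC 1, ST-HSC 1, MEP 2 or MEP 3. MiR-155 ran from -0.19 to 0.48 in GMP and from -1.54 to -1.28 in LT-HSC, called without ST-HSC 1. Pair values that changed sign ran from -0.06 to 0.33 (miR-146b, ST-HSC minus MPP), -0.20 to 0.61 (miR-155, ST-HSC minus CMP) and -0.01 to 0.89 (miR-155, CMP minus GMP).

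Deviations of same-numbered CMP, GMP and MEP arrays correlated above 0.1 in 9 of 9 pairs (0.227 to 0.632), each pair within one slide. Those of differently numbered arrays of slide 1 did so in 6 of 6 (0.298 to 0.450), where same-numbered pairs of slide 1 gave 0.227 to 0.48. Pairs across slides gave -0.572 to -0.365. Number 3 was slide 2 in these populations, so number and slide cannot be told apart there. Of the 21 pairs with ST-HSC or MPP, 3 were above 0.1. With the 9 myeloid arrays alone and a replicate block, added after seeing the data, no call between CMP, GMP and MEP changed (CMP minus GMP: adjusted p = 0.0681 for miR-146b and 0.190 for miR-155, against 0.166 and 0.805 without the block). With all arrays and the replicate number as a block, miR-146a in HSC subsets was 2.60, 9 pairs were called for miR-146a, 5 for miR-146b and 5 for miR-155, and LT-HSC minus ST-HSC of miR-146a and LT-HSC minus GMP of miR-146b lost their calls (adjusted p = 0.0617 and 0.0527). Signal over background limits the dim end, where the MEP levels of both miR-146 members lie.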

Other observations

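The opposite strand of the miR-146b hairpin had 4 probes on the array. None was well above background on any of the 16 arrays, and their signals ran from -5.81 to 2.30 units, so a GMP signal beside that of the mature miR-146b was not detectable.

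When likeness was measured over the 6 population means, miR-29a (0.948) and miR-130a (0.889) still led for miR-146a, followed by miR-212 (0.874). MiR-194 (0.977), miR-27a (0.945) and miR-139-5p (0.943) led for miR-146b, and miR-222 (0.990), miR-10b (0.987) and miR-203 (0.982) for miR-155. MiR-222 is also one of the listed miRs.

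Between the 2 shorter probes the carry-over limits were 10.3% of the miR-146b signal, from GMP 3, and 29% of the miR-146a signal, from LT-HSC 1. Both rest on signals not well above background. The shorter miR-146a probe was not so on any GMP array (3.91 to 14.0 units), nor that of miR-146b on LT-HSC 1 (7.42 units).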
